A study of Mus musculus with 12 samples.

Results

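Rhox5, Rhox6 and Rhox9 are X-linked homeobox genes of mouse, and their mRNA levels were followed in fetal germ cells and round spermatids of male mice and in the matching cells made in culture. The members were all probe sets annotated to exactly 1 of these 3 symbols, which gave 3 probe sets of 45101 on the array, 1 for each gene, and 3 genes of the 18193 with a symbol of their own. Of the other Rhox genes, Rhox13 alone had a probe set with a symbol of its own, and it is described beside the members. The annotation of GRCm38.p6 holds 33 protein-coding Rhox genes, so most of the family was not analysed here.

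The series used 12 arrays, 3 in each of 4 groups. Spermatid-like cells (SLC) were differentiated in vitro, and round spermatids (RS), the haploid cells that follow meiosis, came from testis of BDF1 males at 3 weeks. Primordial germ cell-like cells (PGCLC) were taken on day 6 of differentiation in vitro, and primordial germ cells (PGC), the embryonic precursors of sperm, came from BDF1 male genital ridge at E12.5. All cells were collected by FACS with no gate named, the starting cells and media of the cultures are not given in the sources used here, and the labels name no genotype or treatment beyond this. The labels call the arrays of a group biological replicates without saying whether they came from separate animals or cultures, so p-values measure only the spread between these samples.

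The Rhox genes (reproductive homeobox on the X chromosome) form a cluster of related homeodomain transcription factors that act mainly in testis, epididymis, ovary and placenta. Rhox5, first named Pem, is the founding member. It is known from Sertoli cells, the nurse cells of the testis, where androgen drives its proximal promoter, and from embryonic and placental cells, where a distal promoter is used. Rhox6 and Rhox9, first named Psx1 and Psx2, were described in placenta and in germ cells of the fetal gonad. The cluster is kept silent in most somatic tissues by DNA methylation. In male meiosis the X chromosome is silenced as a whole, and many of its genes stay low in spermatids.

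Rhox5 and Rhox13 lie in the same cluster, and Rhox5 fell between the stages while Rhox13 was not called, so their promoter windows are shown side by side. Each window runs from 250 bases before to 50 bases after the annotated start, 5′ to 3′ on the plus strand of GRCm38.p6, as given by RefSeq, and CG dinucleotides are in capitals. The Rhox5 window is chrX:37754358-37754657 and the Rhox13 window is chrX:38120590-38120889. Rhox6 and Rhox9 had no entry.
Rhox5: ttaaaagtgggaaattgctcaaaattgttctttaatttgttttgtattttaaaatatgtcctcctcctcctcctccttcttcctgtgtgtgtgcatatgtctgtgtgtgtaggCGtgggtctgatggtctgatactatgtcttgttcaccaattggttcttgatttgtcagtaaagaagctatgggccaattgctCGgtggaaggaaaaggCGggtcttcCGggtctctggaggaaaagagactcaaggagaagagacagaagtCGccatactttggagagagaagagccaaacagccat
Rhox13: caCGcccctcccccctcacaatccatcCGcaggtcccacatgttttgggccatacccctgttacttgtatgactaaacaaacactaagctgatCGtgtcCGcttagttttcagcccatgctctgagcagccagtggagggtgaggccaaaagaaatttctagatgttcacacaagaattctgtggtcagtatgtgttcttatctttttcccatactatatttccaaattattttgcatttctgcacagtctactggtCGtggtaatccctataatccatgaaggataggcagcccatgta

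Each window held 5 CG dinucleotides, against a median of 7 over 32851 promoter windows of the same length, and 62% of all windows held as many or more. The octamer ATGCAAAT, the E-box CACGTG and the homeodomain core TAATTA did not occur on either strand of either window, and are found in 1.74%, 7.15% and 5.29% of all windows. The array probes read the 3′ end of the mRNA, so the signal does not tell which Rhox5 promoter was in use.

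Signals are the linear intensities that the authors deposited, scaled to a common level on each array. The floor of the fit was 30.7 units, the 25th percentile of the table, and values under it were set to it before taking log2. With 3 arrays a group, precision is limited by their number, and detection calls were not analysed here. The PGCLC arrays were unlike each other. Between-array correlations of log2 signal across genes, which are not independent replicates, were 0.914 to 0.976 within PGCLCs, against 0.984 to 0.987 within SLCs, 0.976 to 0.984 within RS and 0.986 to 0.988 within PGCs. The summed signal of the 4 germ cell markers Ddx4, Dazl, Mael and Dnd1 was 3383, 28518 and 15991 units on PGCLC replicates 1, 2 and 3, against 32549 to 35712 in PGCs, so replicate 1 held little of it. Results for the members that rest on these arrays are therefore given with each of them left out. The same is done for some counts over gene lists, and other list counts that are given once may also move.

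Rhox5 had 83.7, 84.7 and 115 units on the 3 SLC arrays and 278, 137 and 103 on the RS arrays. It had 7039, 8817 and 7530 units on the PGCLC arrays and 10021, 9758 and 10349 on the PGC arrays. It was thus bright on all arrays of the early stage and dim on all arrays of the spermatid stage, with no overlap between the stages. Mean signals were 94.6 ± 18.03 in SLCs, 173 ± 92.9 in RS, 7795 ± 919 in PGCLCs and 10042 ± 296 in PGCs (SD, n = 3 each). The order from high to low was PGC, PGCLC, RS, SLC. The PGCLC and PGC arrays did not overlap, while SLC replicate 3 lay above RS replicate 3.

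Rhox6 was under the floor on every array of the spermatid stage, at 8.20, 5.84 and 4.83 units in SLCs and 12.3, 5.32 and 2.08 in RS. It had 5505, 1240 and 3760 units on the PGCLC arrays and 1287, 1095 and 1129 on the PGC arrays. PGCLC replicates 1 and 3 were far above all PGC arrays, and PGCLC replicate 2 lay within the PGC range. Mean signals were 3502 ± 2144 in PGCLCs and 1170 ± 102 in PGCs. The order was PGCLC, PGC, and then RS and SLC with no order between them.

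Rhox9 had 19.3, 65.3 and 5.40 units in SLCs and 73.5, 41.9 and 50.9 in RS, so 2 SLC arrays were under the floor and no RS array was. It had 3469, 1390 and 2808 units on the PGCLC arrays and 1379, 1444 and 1452 on the PGC arrays. As for Rhox6, PGCLC replicates 1 and 3 were above all PGC arrays and replicate 2 lay among them. Mean signals were 29.996 ± 31.4 in SLCs, 55.4 ± 16.3 in RS, 2556 ± 1062 in PGCLCs and 1425 ± 40.3 in PGCs. The order was PGCLC, PGC, RS, SLC, and neither PGCLC and PGC nor RS and SLC were separated by their arrays.

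Rhox13, which is expressed in male germ cells, had 235, 286 and 280 units in SLCs and 445, 338 and 459 in RS. It had 310.5, 371 and 314 units in PGCLCs and 455, 457 and 521 in PGCs. Its 12 values lay between 235 and 521 units, and the means were 267 ± 27.7 in SLCs, 414 ± 66.0 in RS, 332 ± 34.3 in PGCLCs and 478 ± 37.7 in PGCs.

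**Figure D1:**
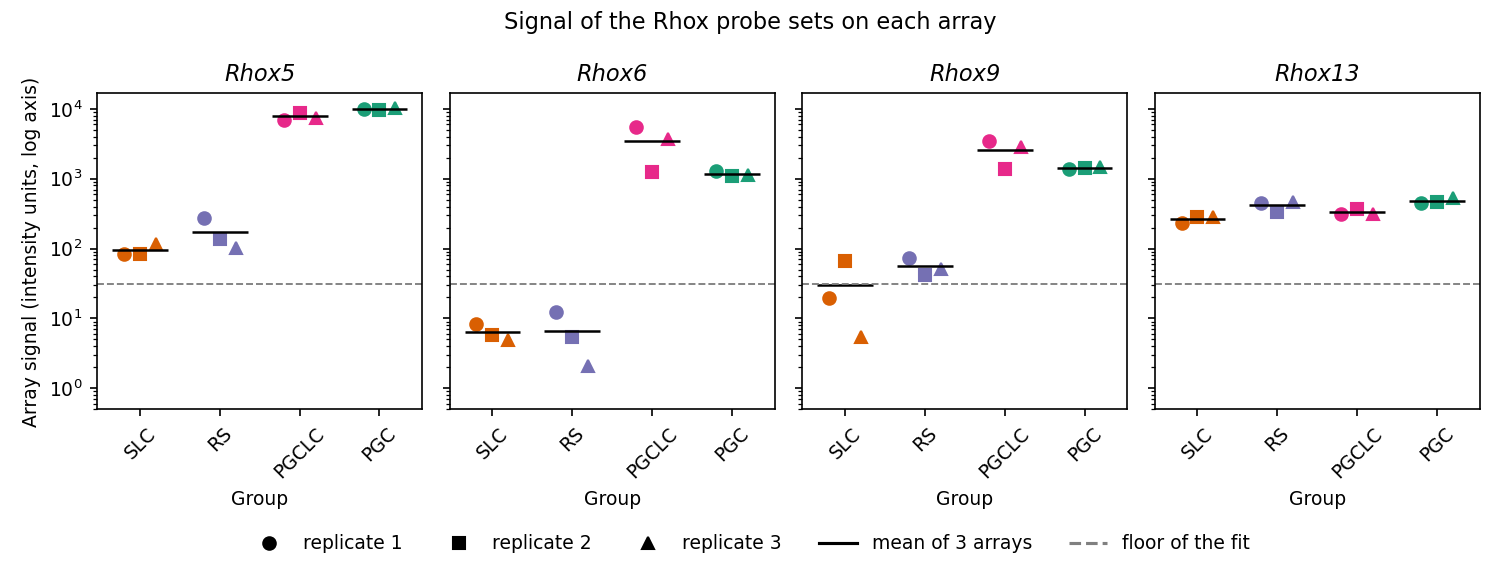
Signal of each Rhox probe set in intensity units on a log axis, for the 3 arrays of SLC, RS, PGCLC and PGC (symbols mark the replicate, bars the mean of 3 arrays, the dashed line the floor of 30.7 units). Rhox5, Rhox6 and Rhox9 are high in PGCLCs and PGCs and low in SLCs and RS, Rhox13 stays between 235 and 521 units, and PGCLC replicate 2 sits with the PGC arrays for Rhox6 and Rhox9.

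RS were compared with PGCs to see how the genes differ between the stages in the animal. All 3 genes fell. A gene is called here at a limma adjusted p under 0.05, adjusted over all 14197 genes of a fit to the 12 arrays, with a change of at least 2-fold, and "rose" and "fell" are used of called genes only. Of all genes tested, 37.2% were called lower in RS and 31.5% higher, 68.6% in all. Rhox5 fell 63.6-fold (log2 -5.99, SE 0.29, 95% interval -6.62 to -5.36, limma adjusted p = 1.33e-09). Rhox6 fell at least 38.0-fold, with all RS arrays at the floor (log2 -5.25, SE 0.40, limma adjusted p = 1.21e-07). Rhox9 fell 26.4-fold (log2 -4.72, SE 0.37, limma adjusted p = 1.35e-07). The arrays of RS and PGC did not overlap for any of the 3, as was so for 85.1% of all genes. Rhox13 did not pass (log2 -0.22, 95% interval -0.56 to 0.13, limma adjusted p = 0.223), and its sign turned after quantile normalization (log2 0.24). In bulk samples, fewer cells of a type and less RNA per cell cannot be told apart.

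SLCs were compared with PGCLCs to see how the genes differ between the stages in culture, where 26.9% of all genes were called lower and 29.4% higher, 56.3% in all. Again all 3 fell, and their arrays did not overlap, as was so for 76% of all genes. Rhox5 fell 82.9-fold (log2 -6.37, SE 0.29, limma adjusted p = 1.32e-09). Rhox6 fell at least 95.9-fold (log2 -6.58, SE 0.40, limma adjusted p = 2.48e-08), and Rhox9 at least 60.3-fold (log2 -5.91, SE 0.37, limma adjusted p = 2.81e-08). With each PGCLC array left out in turn, the log2 difference was -6.44 to -6.28 for Rhox5, -7.21 to -6.13 for Rhox6 and -6.30 to -5.64 for Rhox9, and the genes were called each time. Rhox13 did not pass (log2 -0.31, 95% interval -0.66 to 0.03, limma adjusted p = 0.091).

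The fall of the members was set beside that of other X-linked genes, because the X chromosome is repressed in meiosis. Of the 469 other X-linked genes tested, 90 were higher and 263 lower in RS than in PGCs, with a median log2 difference of -1.34, against -0.22 over all genes. In SLCs against PGCLCs, 98 were higher and 193 lower, with a median of -0.62 against -0.07. Without PGCLC replicates 1, 2 and 3, 99, 100 and 95 were higher and 180, 195 and 187 lower. Among all 472 X-linked genes, 3 had a lower value than Rhox5 in RS minus PGC, 9 were lower than Rhox6 and 25 lower than Rhox9. In SLC minus PGCLC the numbers were 2 for Rhox5, 1 for Rhox6 and 3 for Rhox9. The Rhox6 values in both comparisons, and the Rhox9 value in SLC minus PGCLC, are limits, so their ranks depend on the floor. The members thus lay at the low end of X-linked genes in both comparisons, while Rhox13 lay above the X-linked median.

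**Figure D2:**
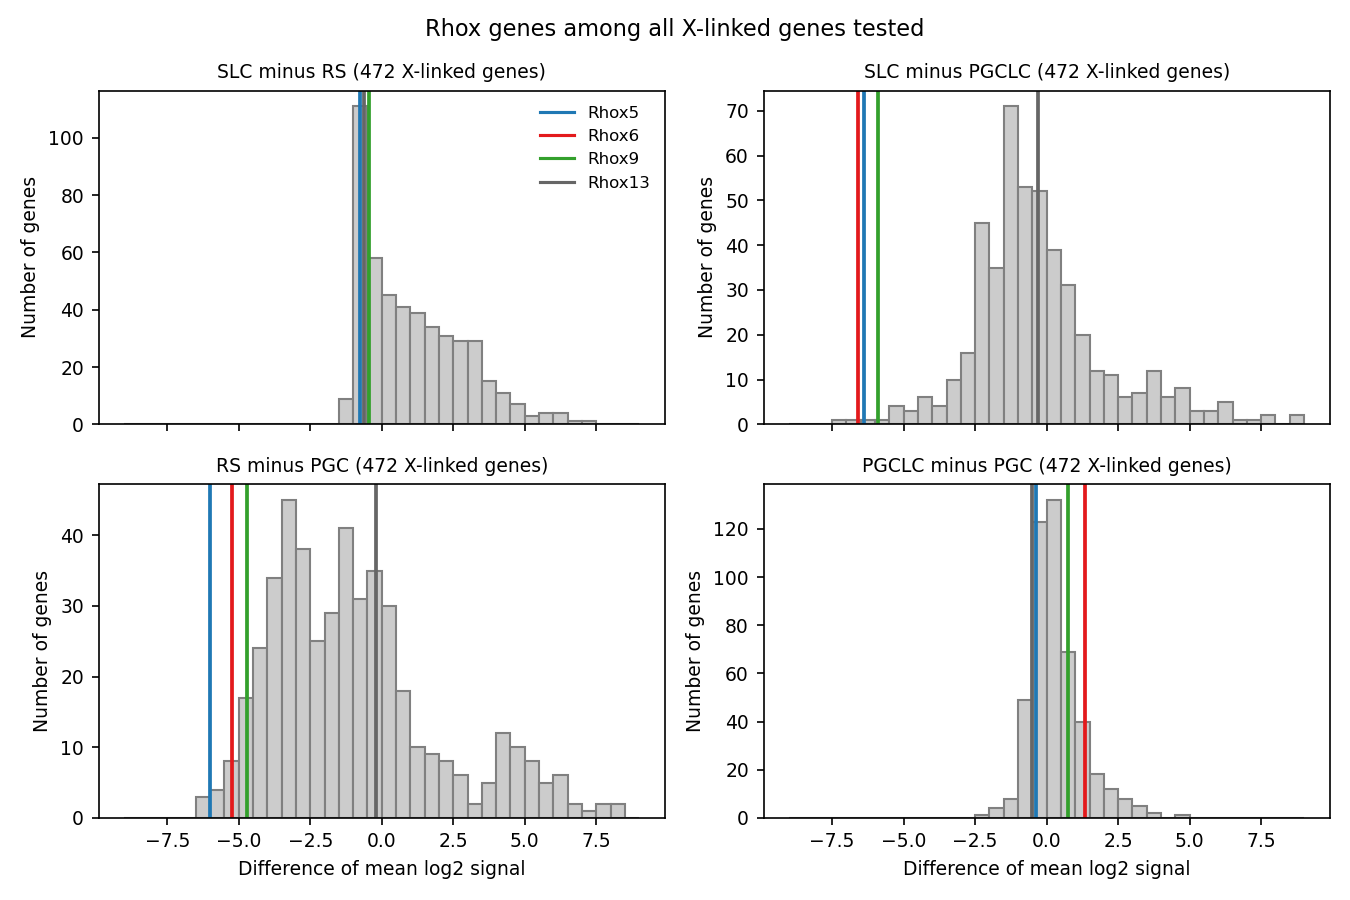
Number of X-linked genes by difference of mean log2 signal in 4 comparisons (472 genes in each panel), with Rhox5, Rhox6, Rhox9 and Rhox13 as vertical lines; Rhox6 is not drawn for SLC minus RS, where all arrays are at the floor. Rhox5, Rhox6 and Rhox9 lie at the low end in SLC minus PGCLC and RS minus PGC, and Rhox13 near 0.

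Genes on either side of the cluster moved in both directions. Within 1 Mb of the cluster the annotation holds 28 other protein-coding genes, and 21 genes were measured there, including 1 long non-coding RNA. In RS minus PGC, 14 of the 21 fell and 2 rose, with a median log2 difference of -1.40. Of the 469 X-linked genes other than the members, 263 fell and 90 rose, with a median of -1.34, so the neighbours were near X-linked genes in general. The largest changes were those of Akap14, a protein kinase A anchoring gene, at 1613 ± 154 units in RS and 35.1 ± 21.6 in PGCs (log2 5.32, with 1 PGC array at the floor), and of Slc25a5, a mitochondrial ADP/ATP carrier gene, at 263 ± 11.7 units in RS and 8309.5 ± 455 in PGCs (log2 -4.98). Zbtb33, which encodes the methyl-CpG binding protein Kaiso, fell 16.1-fold (log2 -4.01), and Nkrf, a repressor gene, fell 15.6-fold (log2 -3.96). In SLC minus PGCLC, 7 of the 21 fell and 2 rose, with a median of -0.64, against 193 and 98 of the 469 and a median of -0.62. Without PGCLC replicate 1, 4 of the 21 fell and 3 rose, and without replicate 3, 5 fell and 1 rose. Akap14 rose again (log2 4.38), while Nkrf (log2 -2.39), Mdrl (log2 -2.36) and Nkap (log2 -2.01) fell.

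Early germ cell genes fell with the Rhox members. All 13 measured early PGC genes fell in RS against PGCs, with a median log2 difference of -5.20, and 12 of 13 fell in SLCs against PGCLCs, with a median of -4.99. The exception was Ifitm3, which was higher in SLCs, at 16381 ± 456 units against 8648 ± 2222 in PGCLCs. It was not called with all arrays, but was called higher without PGCLC replicate 1 and without replicate 3. Prdm14, a PGC specification factor, had a log2 difference of -5.80 in RS. Sox2 and Nanog were at the floor on all 3 RS arrays and Dppa3 on 2 of 3, so their log2 values of -7.58, -6.57 and -9.02 are limits set by the floor and give no order. Of 20 genes of DNA methylation and silencing, 12 fell and 4 rose in RS, among them Tet1, a methylcytosine oxidase gene (log2 -6.94), and Dnmt3l (log2 3.84, with 1 of 3 PGC arrays at the floor). In SLCs 15 of the 20 fell and 1 rose, with Tet1 (log2 -6.56), Dnmt3b (log2 -3.85), Hells (log2 -3.51) and the maintenance methyltransferase gene Dnmt1 (log2 -2.94) leading. Germline genes held silent by methylation in somatic cells did not move as a block. In RS 5 of 18 rose and 8 fell, where 31.5% of all genes were called higher and 37.2% lower. Among the 18 were Dpep3, a testis dipeptidase gene with 2 of 3 PGC arrays at the floor (log2 at least 6.49), and Tex19.1, a retrotransposon control gene (log2 -4.23). In SLCs against PGCLCs 7 of 18 rose and 5 fell, with a median log2 difference of 0.24. Over all genes 29.4% were called higher and 26.9% lower there, with a median of -0.07. Without PGCLC replicate 1 the counts of the 18 were 5 and 8 and the median -0.36. Without replicate 2 the counts were 9 and 3, and without replicate 3 they were 7 and 4.

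PGCLCs of day 6 were set against PGCs of E12.5, the fetal cells they are named after. The groups may differ in developmental stage as well as in culture, and these cannot be told apart here. Of the 3 genes, Rhox6 rose and neither Rhox5 nor Rhox9 passed, and over all genes 11.9% were called, 10.3% higher and 1.6% lower (1458 and 227 genes). After median centring the split was 975 higher and 878 lower, after quantile normalization 1042 and 375. Rhox6 was 2.53-fold higher (log2 1.34, SE 0.40, 95% interval 0.45 to 2.23, limma adjusted p = 0.0302), although its PGCLC and PGC arrays overlapped. Against the PGC mean it was 4.72-fold higher on PGCLC replicate 1, 1.06-fold on replicate 2 and 3.22-fold on replicate 3. The call ended without PGCLC replicate 1 (log2 0.89, limma adjusted p = 0.108) and without replicate 3 (log2 1.16, adjusted p = 0.108). It also ended without PGC replicate 1, 2 or 3 (limma adjusted p = 0.0667, 0.0824 and 0.0784), and in a fit of the 6 arrays compared (adjusted p = 0.172). Without PGCLC replicate 2 the difference was larger (log2 1.96, limma adjusted p = 1.04e-05).

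Rhox9 was 1.67-fold higher and did not pass (log2 0.74, SE 0.37, 95% interval -0.07 to 1.55, limma adjusted p = 0.147). It was 2.44-fold higher than the PGC mean on PGCLC replicate 1, 0.976-fold on replicate 2 and 1.97-fold on replicate 3, the same order of arrays as for Rhox6. Without PGCLC replicate 2 it was called (log2 1.13, limma adjusted p = 0.0129), and without replicate 1 or 3 it was not (log2 0.47 and 0.62, adjusted p = 0.428 and 0.331). The Rhox6 and Rhox9 genes are close relatives, and whether their probe sets pick up each other's mRNA was not tested.

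Rhox5 was lower on all 3 PGCLC arrays, at 0.701, 0.878 and 0.75 times the PGC mean on replicates 1, 2 and 3. It did not pass (log2 -0.37, SE 0.29, 95% interval -0.998 to 0.25, limma adjusted p = 0.352). Its arrays did not overlap between the groups, as was so for 40.3% of all genes. The standard error takes in the spread of the RS arrays, and in a fit of the 6 PGCLC and PGC arrays it was 0.096 (adjusted p = 0.085). Rhox13 was 1.44-fold lower in PGCLCs with an adjusted p of 0.0293 by limma, short of the 2-fold limit.

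**Figure D3:**
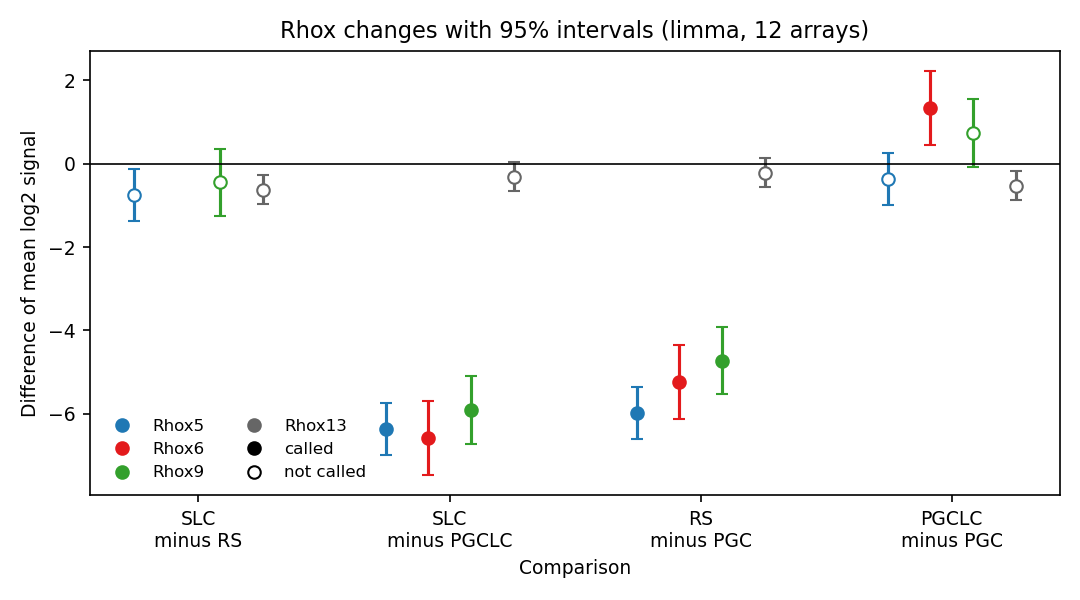
Difference of mean log2 signal for each Rhox gene in 4 comparisons, with 95% intervals from limma on 12 arrays (filled points are called, open points are not). The 3 members fall by 4.72 to 6.58 in SLC minus PGCLC and RS minus PGC, and in PGCLC minus PGC only Rhox6 is called, at 1.34; Rhox6 is not drawn for SLC minus RS.

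The order of the PGCLC arrays in Rhox6 and Rhox9 was set beside that of other gene groups. Germline genes whose promoters are held silent by methylation in somatic cells, as the Rhox cluster is, went the other way. Of 18 such genes 12 fell in PGCLCs, with a median log2 difference of -1.53 against 0.006 over all genes. Their median difference from PGCs was -3.10 on PGCLC replicate 1, -0.34 on replicate 2 and -1.25 on replicate 3. The 18 include the germ cell markers Ddx4, Dazl, Mael and Dnd1, so this order is not separate from that of their summed signal given above. Brdt, a testis bromodomain gene, was at 317 ± 336 units in PGCLCs, with 1 array at the floor, and 885 ± 33.6 in PGCs (log2 -2.35, limma adjusted p = 0.043). Asz1 and Mael, both of the piRNA pathway, fell 3.93-fold and 3.82-fold, and Slc25a31, a testis ADP/ATP carrier gene, did not pass (log2 -1.96, limma adjusted p = 0.06). Without PGCLC replicates 1, 2 and 3, 2, 16 and 2 of the 18 were called lower.

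Among 13 measured early PGC genes, Nanog, a pluripotency factor, rose (log2 1.11). Dnd1, an RNA-binding protein gene that PGCs need to survive, and Cxcr4, a receptor gene for migration, fell (log2 -1.54 and -1.08). The median log2 difference of the list was -0.36. Dppa3 and Prdm1, markers of PGC specification, did not pass (log2 -1.22 and -1.13, limma adjusted p = 0.0872 and 0.0596). These 3 calls ended without PGCLC replicate 1 and without replicate 3, and 3 rose and 4 fell without replicate 2. Of 20 measured genes of DNA methylation and silencing, 3 rose, namely the de novo methyltransferase gene Dnmt3b (log2 1.63), its cofactor gene Dnmt3l (log2 2.65, with 1 PGC array at the floor) and the methylcytosine oxidase gene Tet2 (log2 1.91). Uhrf1, which guides maintenance methylation, was higher but under 2-fold (log2 0.91, limma adjusted p = 0.0244). The 3 of 20 stand beside 10.3% of all genes called higher. Without PGCLC replicates 1, 2 and 3, 3, 4 and 1 of the 20 were called higher, and 987, 2122 and 958 of all 14197 genes.

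Rhox6 and Rhox9 are also genes of the trophoblast, the outer lineage of the placenta, and the summed signal of trophoblast markers had the same order over the PGCLC arrays. Of 15 listed markers 8 were measured, and 4 of these rose, with 3, 6 and 3 called without PGCLC replicates 1, 2 and 3. The summed signal of the 8 was 39104, 6614 and 28794 units on PGCLC replicates 1, 2 and 3, against 2971 to 3382 in PGCs. The keratin genes Krt8 and Krt18 made up most of it, with Krt8 at 14786, 1743 and 11573 units on the PGCLC arrays and 278 to 293 in PGCs (log2 4.55, limma adjusted p = 0.000897). Plac1, an X-linked placental gene, was at 2451, 314 and 1523 units on the PGCLC arrays and 69.1 to 106 in PGCs (log2 3.59). These keratins are found in many epithelia, and Tfap2c is both a trophoblast and a PGC gene. Ascl2, a placental factor, did not follow this order, at 309.6, 332 and 290.2 units on the PGCLC arrays and 321 to 378 in PGCs (log2 -0.14). Hand1, a trophoblast giant cell factor, was the other that rose (2.003-fold). Eomes, a trophoblast stem cell factor, was at 232 ± 42.7 units in PGCLCs and 179 ± 64.4 in PGCs and did not pass (log2 0.42, limma adjusted p = 0.368). Cdx2, Elf5, Tpbpa and Gcm1, also defining markers, were not among the genes tested. This order was not particular to trophoblast markers. Genes within 1 Mb of the cluster had median log2 differences of 0.55, -0.01 and 0.13 from PGCs on replicates 1, 2 and 3. For the 469 other X-linked genes the medians were 0.20, 0.07 and 0.11, and for all genes they were near 0. The part of trophoblast-like cells in the Rhox6 and Rhox9 values was not tested.

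The summed signal of Sertoli markers had the opposite order. Over 12 measured of 18 listed markers it was 5662, 13282 and 8445 units on PGCLC replicates 1, 2 and 3, against 8499 to 8960 in PGCs, so it was lowest on replicate 1, where Rhox6 and Rhox9 were highest and Rhox5 was lowest. Of the 12, Clu rose and Dmrt1, which germ cells also express, fell. Over all genes 10.3% were called higher and 1.6% lower. Dmrt1 made up most of the PGC sum, at 5278 to 5458 units in PGCs and 1153, 4972 and 2458 on the PGCLC arrays. The median log2 difference of the 12 markers from PGCs was -0.95, 1.25 and 0.28 on PGCLC replicates 1, 2 and 3. Clu, at 3000.2, 1541 and 2483 units on the PGCLC arrays, and Gata1, at 92.2, 76.8 and 95.9, were lowest on replicate 2, unlike the sum. Without PGCLC replicates 1, 2 and 3, 3, 1 and 1 of the 12 were called higher, and the Dmrt1 call ended without replicate 1 and without replicate 3. The 4 measured Leydig markers, of the steroid-making cells of the testis, summed to 147, 2039 and 914 units on the PGCLC arrays and 721 to 1137 in PGCs. Their part in the Rhox5 signal was not tested.

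**Figure D4:**
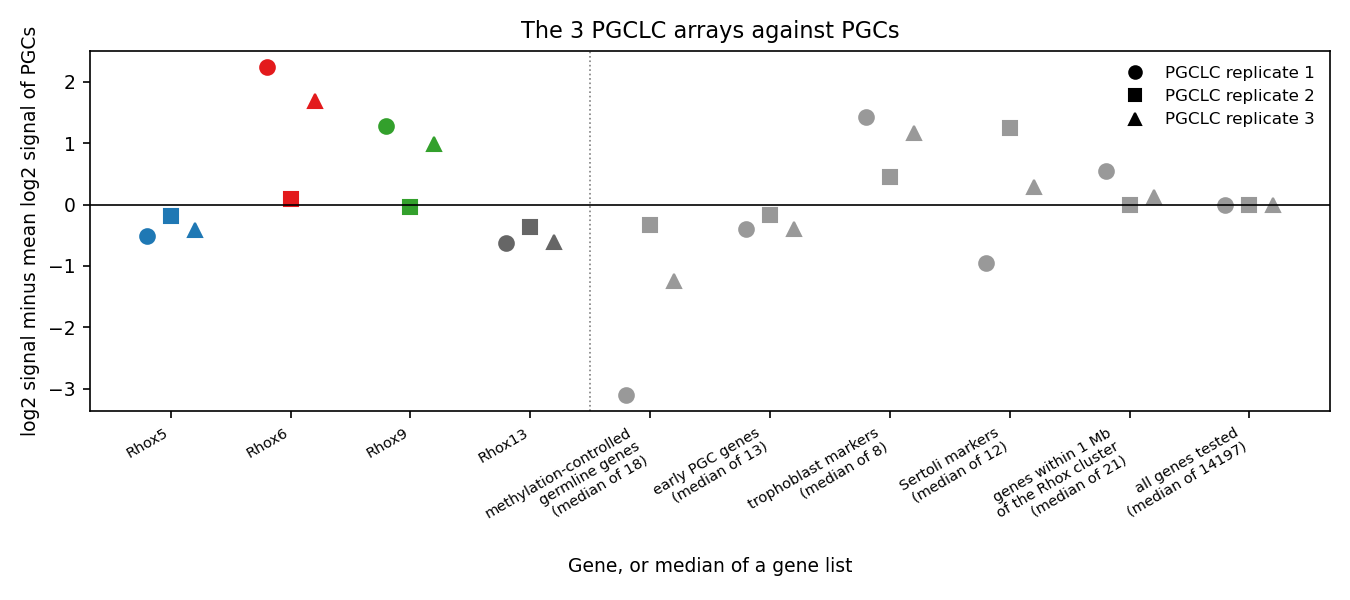
Difference of log2 signal from the mean of 3 PGC arrays, on each of the 3 PGCLC arrays, for 4 Rhox genes and as medians of 5 gene lists and of all genes tested. Rhox6 and Rhox9 are highest on replicates 1 and 3 and near 0 on replicate 2, the germline list is lowest on replicate 1 at -3.10, and the median of all genes is at 0.

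SLCs were set against RS, their counterpart in the testis, and 26.8% of all genes were called, 23.5% higher and 3.32% lower. None of the 3 Rhox genes was called by limma, although Rhox5 was past an unadjusted p of 0.05. Rhox5 was 1.69-fold lower in SLCs, past the adjusted p but under 2-fold (log2 -0.76, SE 0.29, 95% interval -1.38 to -0.13, limma adjusted p = 0.0369), with 2 of 3 SLC arrays below all RS arrays. Without RS replicate 1, where Rhox5 was brightest, the difference was -0.35 (adjusted p = 0.109), and without RS replicate 3 it passed 2-fold (log2 -1.06, limma adjusted p = 0.00584). It was also called lower after quantile normalization (log2 -1.28, limma adjusted p = 0.00161) and after median centring (log2 -1.02, adjusted p = 0.00159). RS replicate 1 also had a higher median over all probe sets, 99.9 units against 76.3 and 73.2 on RS replicates 2 and 3, and 94.7 to 104 in SLCs. Rhox9 did not pass (log2 -0.45, 95% interval -1.26 to 0.36, limma adjusted p = 0.304), with SLC arrays at the floor. For Rhox6 no fold is given, since all arrays of both groups were at the floor. Rhox13 was 1.54-fold lower in SLCs without overlap between arrays, as was so for 74.5% of all genes, past the adjusted p but under 2-fold (log2 -0.63, limma adjusted p = 0.00504). After quantile normalization it was called lower by limma (log2 -1.18).

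X-linked genes as a group were higher in SLCs than in RS, with 204 of the 469 others rising and 9 falling and a median log2 difference of 0.68, against -0.15 over all genes. After median centring 184 of 465 were called higher and 66 lower, and over all genes 2912 and 2537, against 3335 and 472 before. Within 1 Mb of the cluster 10 of 21 genes rose, among them Lamp2, a lysosomal membrane gene, at 6199 ± 132 units in SLCs and 173 ± 17.8 in RS (log2 5.16), and Slc25a5 (log2 4.21), Mcts1 (log2 4.75) and Pgrmc1 (log2 4.05). The fitted Rhox5 value was below that of 404 of the 472 X-linked genes, and that of Rhox9 below 343. The Rhox9 value is a limit, so its rank depends on the floor. Sertoli cells are the known site of Rhox5 in postnatal testis. Of 12 Sertoli markers measured, 7 rose in SLCs, and the summed signal of the 12 was 8922 to 9266 units in SLCs against 2751 to 3290 in RS. Inhbb, an inhibin and activin subunit gene, was at 1818 ± 65.6 units in SLCs and 31.9 ± 26.2 in RS (log2 5.52), with 1 RS array at the floor. Wt1 and Nr5a1, gonadal transcription factor genes, rose 7.80-fold and, with 1 RS array at the floor, at least 7.71-fold. Dmrt1, Dhh and Gata1 were lower in SLCs and did not pass (log2 -0.75, -0.71 and -0.60). The Sertoli hormone gene Amh was not among the genes tested. The summed signal of the 4 Leydig markers was 7200 to 7617 units in SLCs and 176 to 245 in RS. Cyp11a1 and Star made up most of the SLC sum, at 4115 ± 165 and 2637 ± 287 units. Of the 4, 3 rose in SLCs. Cyp17a1 was lower there, at 33.9 ± 24.96 units against 109 ± 33.8 in RS, with 2 SLC arrays at the floor. It did not pass (log2 -1.44, limma adjusted p = 0.139), although its arrays did not overlap between the groups. Rhox5, at 94.6 ± 18.03 units in SLCs and 173 ± 92.9 in RS, was not higher where these sums were. Their part in its signal was not tested.

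The comparisons share arrays, so their values are not independent. The stage change in culture, SLC minus PGCLC, was set against the stage change in the animal, RS minus PGC, by an interaction term, which called 31.7% of all genes, 20.7% higher and 11.1% lower (2936 and 1571 genes, and after quantile normalization 2348 and 1969). None of the 3 Rhox genes was called by limma, while Rhox6 and Rhox9 were past an unadjusted p of 0.05. The difference of the log2 changes was -0.38 for Rhox5 (SE 0.40, 95% interval -1.27 to 0.50, limma adjusted p = 0.456). It was -1.34 for Rhox6 (SE 0.57, 95% interval -2.59 to -0.08, adjusted p = 0.0738) and -1.19 for Rhox9 (SE 0.52, 95% interval -2.34 to -0.05, adjusted p = 0.0797). Without PGCLC replicate 2 both passed, Rhox6 at -1.96 (limma adjusted p = 5.24e-05) and Rhox9 at -1.58 (adjusted p = 0.00895). Since Rhox6 was at the floor in both spermatid groups, its term equals its PGCLC minus PGC value with the sign turned.

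Genes with a pattern most like that of each member were found by the root mean square difference between log2 signals over the 12 arrays, after centring each gene on its own mean. A value of 0 means the same pattern, and the measure is a description over arrays that share their groups. Closest to Rhox5 were Dppa2 (0.29), Trim71 (0.34), Pou5f1 (0.40), Dppa4 (0.43) and Prdm14 (0.45), all known from pluripotent or early germ cells. Dppa2, for example, was at 6.36 ± 1.53 units in SLCs, 23.6 ± 23.0 in RS, 2553 ± 140 in PGCLCs and 3032 ± 233 in PGCs. Closest to Rhox6 were Tfap2c (0.39), a transcription factor gene of PGC specification and trophoblast, Dusp9 (0.51), an X-linked phosphatase gene, Bex1 (0.53), also X-linked, Rhox9 (0.54) and Zfp982 (0.61). Closest to Rhox9 were Tfap2c (0.39), Dusp9 (0.47), Rhpn2 (0.49), Trim71 (0.49) and Mycn (0.52).

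Tfap2c was at the floor on all SLC and RS arrays and had 2695, 1058 and 1823 units on the PGCLC arrays and 1014, 960 and 677 on the PGC arrays. Dusp9 had 3169, 1102 and 2304 units on the PGCLC arrays and 1231, 1130 and 1119 on the PGC arrays. Both were highest on PGCLC replicate 1 and lowest on replicate 2, the order that Rhox6 and Rhox9 had. Because Tfap2c and Dusp9 were chosen for likeness over these same arrays, a shared order is built into the choice. Among the members, Rhox6 and Rhox9 were the closest pair (0.54), followed by Rhox5 with Rhox9 (0.79) and with Rhox6 (0.91). Rhox13 was far from all 3, at 2.60 to 2.98.

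**Figure D5:**
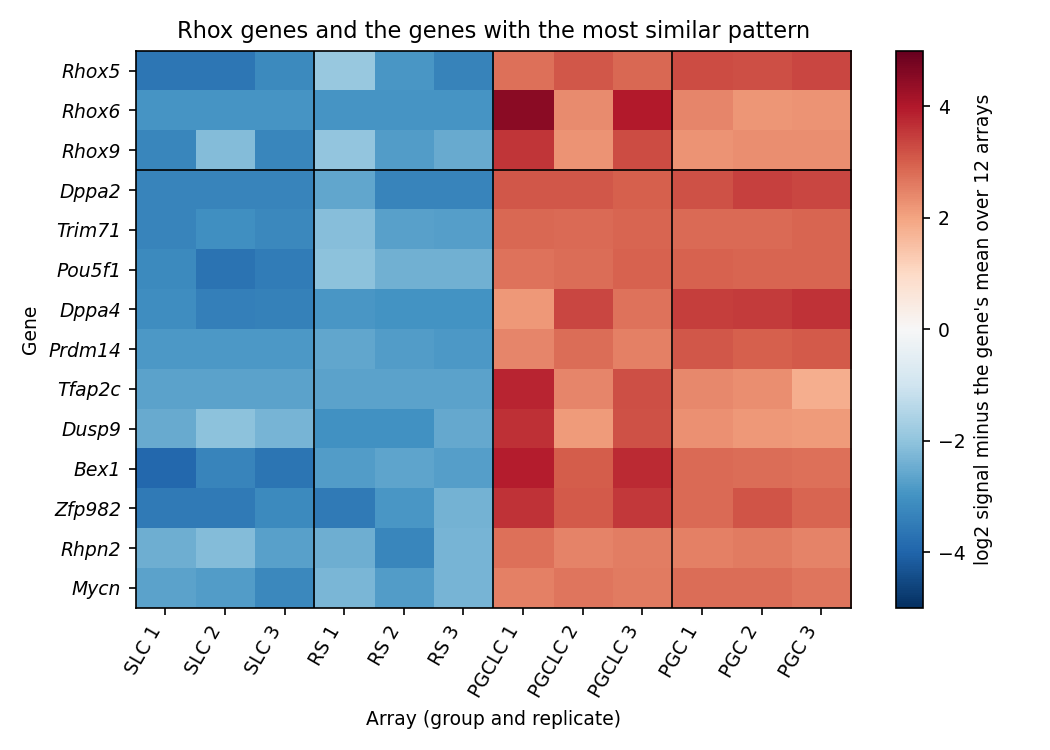
Log2 signal of each gene minus its mean over 12 arrays (colour), for Rhox5, Rhox6 and Rhox9 above the line and the genes most like them below it, with the arrays of SLC, RS, PGCLC and PGC in columns. All genes shown are low on the 6 arrays of the spermatid stage and high on the 6 of the early stage, and Rhox6, Rhox9, Tfap2c, Dusp9 and Bex1 are highest on PGCLC replicate 1. The genes below the line were chosen for likeness over these arrays, so shared traits are built in.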

How the data were processed

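Total RNA was labelled with biotin and read on Affymetrix 3′ expression arrays, 12 in all. The authors deposited 1 linear intensity per probe set and array, made with MAS5 per the submitters' processing notes, with no version given. A trimmed mean, leaving out 2% at each end, came to 500 on each array.

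Probe sets were named from the platform annotation, with symbols updated by Entrez identifier for 34741 of 34945 that had 1 symbol. Values under 30.7 units, the 25th percentile, were set to it before log2. Probe sets above the median, 92.03 units, on at least 3 arrays were kept, and the brightest stood for its gene, leaving 14197 genes. The 12 arrays were fitted together with limma 3.58.1 in R 4.3.3 (lmFit, eBayes with an intensity trend), and p-values were adjusted by Benjamini-Hochberg over all genes. The fit was tested on simulated data. Members, lists and comparisons were chosen with earlier results of these data known, so list counts are descriptions.

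Named genes were the 3 members, Rhox13, up to 4 list members with the largest change in a comparison, and the 5 genes most like each member, leaving out clone names. Other genes were named after their values were seen. Where a lower group had arrays at the floor, the fitted difference is a limit, marked "at least" or by the number of such arrays. Promoter motifs were counted with Python 3.11.15, and 1 of those searched is not reported here.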

Additional observations from a re-analysis of the deposited data

How the results depend on the processing

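The falls of Rhox5, Rhox6 and Rhox9 in SLC minus PGCLC and in RS minus PGC were called in each of 23 alternatives. These were another floor, log2(value + 32), no filter, 2 scalings, 2 uses of probe sets, the groups compared alone, no intensity trend, array weights, the replicate block and each array left out. Over all comparisons, 298 of 318 alternatives kept direction and call. Many of these could not change a difference. Each member had 1 probe set, and leaving out an array of a group not compared alters only the error and the adjusted p. The log2 differences in SLC minus RS for Rhox5 passed after quantile normalization (-1.284) and median centring (-1.016), and were -1.062 to -0.3464 with an array left out. The Rhox6 difference in PGCLC minus PGC was not called with no filter (1.337, limma adjusted p = 0.0543), after median centring (1.036, adjusted p = 0.0521) or with the groups compared alone (1.337), and was 0.8874 to 1.963 with an array left out. For Rhox9 that range was 0.472 to 1.132. The interaction term of Rhox5 turned its sign without RS replicate 1, with a range of -0.6901 to 0.02508. That of Rhox6 was called with array weights (-1.681) and ranged from -1.963 to -0.8874 with an array left out. That of Rhox9 was called with log2(value + 32) (-1.329), quantile normalization (-1.414) and array weights (-1.192), also without PGCLC replicate 2 or SLC replicate 2, and ranged from -1.58 to -0.9201. Mean signals moved beyond 1 SD for Rhox5 in PGCLCs (6844) and PGCs (10860) after median centring, and for Rhox9 in PGCs after quantile normalization (1370) and median centring (1541). The cause of these changes was not tested. Median centring moved the median log2 difference of all genes in PGCLC minus PGC to -0.232, against 0.006 before, and in SLC minus RS to -0.412, against -0.152. Quantile normalization moved that of RS minus PGC to -0.0335, against -0.222.

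Calls over all genes in PGCLC minus PGC numbered 168 higher and 7 lower with the groups compared alone, 2363 and 342 with all kept probe sets, 987 and 58 when PGCLC replicate 1 was left out, 2122 and 757 without replicate 2 and 958 and 88 without replicate 3. Of 18 same-number pairs of arrays, 1 had a correlation of deviations above 0.1 (range -0.0167 to 0.133). Pairs with different numbers were not compared, so this does not settle whether the samples were paired. With the replicate block the Rhox6 difference was 1.337 (limma adjusted p = 0.0298), and no call on a member changed. Rhox6 in SLC minus RS has no value, and Rhox9 there has none with the floor at the median, because both groups lie at the floor. The gene list counts under other scalings and without PGCLC arrays were chosen after seeing the data.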

Other observations

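Of 7 listed X-linked homeobox genes outside the Rhox cluster, Esx1 and Pou3f4 were measured, and their order across the groups was unlike that of the Rhox members. Esx1, known from placenta and spermatids, was at 233 ± 54.7 units in SLCs, 462 ± 124 in RS, 168 ± 50.2 in PGCLCs and 34.1 ± 18.6 in PGCs (SD, n = 3 each). With 1 PGC array at the floor, it rose in RS against PGCs (log2 3.52, limma adjusted p = 3.83e-07) and in PGCLCs against PGCs (log2 2.05, limma adjusted p = 0.00168). On PGCLC replicates 1, 2 and 3 it had 188, 111 and 206 units, lowest on replicate 2 as Rhox6 and Rhox9 were. Pou3f4, a POU-domain factor, was at 32.8 ± 35.1 units in SLCs and 107 ± 12.9 in RS, and fell in SLCs with 2 of 3 SLC arrays at the floor (log2 -1.38, limma adjusted p = 0.032).

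Unc5c, a netrin receptor gene reported as repressed by Rhox5 in Sertoli cells, was at 471 ± 67.7 units in PGCLCs and 205 ± 62.8 in PGCs, and rose (log2 1.23, limma adjusted p = 0.00964). This call ended after quantile normalization (log2 0.99) and after median centring (log2 0.93). In the same arrays Rhox5 was lower without passing (log2 -0.37, limma adjusted p = 0.352). In SLCs against PGCLCs, where Rhox5 fell 82.9-fold, Unc5c was at 108 ± 37.0 units in SLCs and 471 ± 67.7 in PGCLCs, and fell (log2 -2.16, limma adjusted p = 1.85e-05). In RS against PGCs, where Rhox5 fell 63.6-fold, Unc5c was at 131 ± 24.8 units in RS and 205 ± 62.8 in PGCs and did not pass (log2 -0.62, limma adjusted p = 0.0549).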
